A study of Mus musculus with 8 samples.

Results

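The mitosis and G2/M genes examined here are 40 protein coding genes named by symbol, which act from the entry into mitosis to the separation of the daughter cells. All 40 symbols were found among the 41325 gene symbols of each library, and all 40 had an RPKM over 1 in at least 1 library, as did 11513 genes in all. RPKM is the number of reads divided by the exon length of a gene and by the mapped reads of its library, so that levels can be set side by side between genes and libraries. The RNA came from C3H10T1/2, a mesenchymal stem cell line of the mouse that can be turned into fat cells. The 4 lines are control cells (shControl, labelled WT) and cells with a stable knockdown, named shKDM4D, shNFIB and shMLL1. Each line gave 1 RNA-seq library before adipogenic induction (day 0) and 1 at day 5. KDM4D is a histone demethylase, NFIB a transcription factor and MLL1, encoded by *Kmt2a*, a histone H3K4 methyltransferase. At day 0 the cultures were past confluence and had not yet received insulin, dexamethasone and isobutylmethylxanthine, and by day 5 they had passed through the induction in every line. The knockdown cells were grown from puromycin-resistant clones that carry an shRNA from the pLKO.1 vector, and the sources used here do not state which clone of each was sequenced. An effect of the knockdown and a property of the clone or culture therefore cannot be told apart. Since no condition has a replicate library, no test between conditions was made, a gene is said to rise or fall when its RPKM changed by more than 2-fold, and the 95% intervals cover counting error only.

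Mitosis is driven by CDK1 bound to the A and B cyclins, whose genes are transcribed late in the cell cycle and kept low in resting cells. Polo-like and Aurora kinases then build the spindle, the spindle assembly checkpoint holds back the anaphase-promoting complex until every kinetochore is attached, and the midzone proteins complete the division. Fat cells are post-mitotic, and confluent preadipocytes in culture are known to divide again for a short time after induction before they leave the cell cycle. The days between day 0 and day 5 were not analysed here. In bulk RNA, fewer dividing cells and less of an mRNA in each dividing cell cannot be told apart.

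The number of mapped reads recovered from the values was between 15800000 and 38200000 per library, with both shMLL1 libraries the deepest. *Cdc25c* had the fewest reads of the 40 genes in each of the 8 libraries, with a lowest count of 98 in shControl cells at day 5. *Nfib* was at an RPKM of 9.92 and 17.0 in shControl cells (day 0 and day 5) against 2.31 and 3.38 in shNFIB cells, and *Kmt2a* at 5.17 and 5.27 against 2.00 and 1.63 in shMLL1 cells. *Kdm4d* was between 0.0179 and 0.235 in the 8 libraries, a low level on both days. At day 0 it was at 0.0262 in shControl and 0.0179 in shKDM4D cells, too few reads to check the knockdown. At day 5 it was at 0.235 and 0.0647 in the same order, which is also a weak check. Of 9 mesenchymal marker genes, 9 had an RPKM over 1 in the shControl and shMLL1 libraries and 8 in the shKDM4D and shNFIB libraries, where the surface marker *Thy1* was at 0.139 or below. The markers of leukocytes, endothelium and epithelium summed to an RPKM of 1.81 or less per list and library. The summed RPKM of 8 adipocyte markers went from 10.9 at day 0 to 831 at day 5 in shControl cells, and from 7.42 to 39.1, from 7.40 to 12.1 and from 4.12 to 12.5 in shKDM4D, shNFIB and shMLL1 cells respectively. The part of these differences between the lines in the values below was not tested.

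To show the sequence next to the start of these genes, the RefSeq promoter windows of GRCm38.p6, which run from 250 bases before to 50 bases after the first transcribed base, were searched on both strands. The search used the letters of the cell cycle genes homology region (CHR, TTTGAA), the element through which the DREAM and MYB-MuvB complexes are known to act on late cell cycle genes, and those of the NF-Y element (CCAAT). The following 30-base stretches are shown for the 8 of the 14 genes described one by one below whose window holds the CHR. Each reads 5′ to 3′ on the strand of its gene, and the capitals mark the CHR, written TTCAAA where it lies on the other strand.
Cdk1: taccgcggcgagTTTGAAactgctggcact
Plk1: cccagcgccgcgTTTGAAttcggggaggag
Aurka: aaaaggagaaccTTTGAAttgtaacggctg
Cdc20: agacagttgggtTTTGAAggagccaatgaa
Cenpa: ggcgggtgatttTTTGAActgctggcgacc
Kif11: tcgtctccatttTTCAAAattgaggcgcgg
Top2a: gctagataaaggTTCAAAtgaaactaggga
Mki67: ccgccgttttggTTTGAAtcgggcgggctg
Their positions are chr10:69352910-69352939 (minus strand) for *Cdk1*, chr7:122159453-122159482 (plus strand) for *Plk1*, chr2:172370521-172370550 (minus strand) for *Aurka*, chr4:118437344-118437373 (minus strand) for *Cdc20*, chr5:30666890-30666919 (plus strand) for *Cenpa*, chr19:37376351-37376380 (plus strand) for *Kif11*, chr11:99024195-99024224 (minus strand) for *Top2a* and chr7:135716460-135716489 (minus strand) for *Mki67*.

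A window was matched for 32 of the 40 genes, and the table used here holds none for *Foxm1*, *Ccna2*, *Cdc25c*, *Aurkb*, *Incenp*, *Tpx2*, *Kif20a* and *Smc4*. The CHR letters were found in 24 of the 32 windows (75%), against 11.9% of the 8881 windows of genes with an RPKM over 1 and 18.1% of all 27025 windows. Within 100 bases before to 50 bases after the start they were found in 23 of the 32 windows (71.9%), against 4.39% for the expressed genes. The nearest match read in the direction of the gene in 16 of the 24 windows. At least 1 CCAAT was found in 25 windows (78.1%, against 39.9%), and 2 or more in 18 (56.2%, against 15.9%). Both the CHR and 2 or more CCAAT were held by 16 windows (50%, against 2.17%), and in 1 window a CHR match overlapped a CCAAT match. The matches lay at different distances, since the 50 bases from the start onwards held the CHR in 46.9% of the 32 windows and a CCAAT in 6.25%, whereas the 50 bases before the start held the CHR in 21.9% and a CCAAT in 53.1%. Of the 14 genes, *Ccnb1*, *Bub1* and *Birc5* had no CHR letters in this window, and *Ccnb1* and *Bub1* each had 2 CCAAT.

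**Figure D1:**
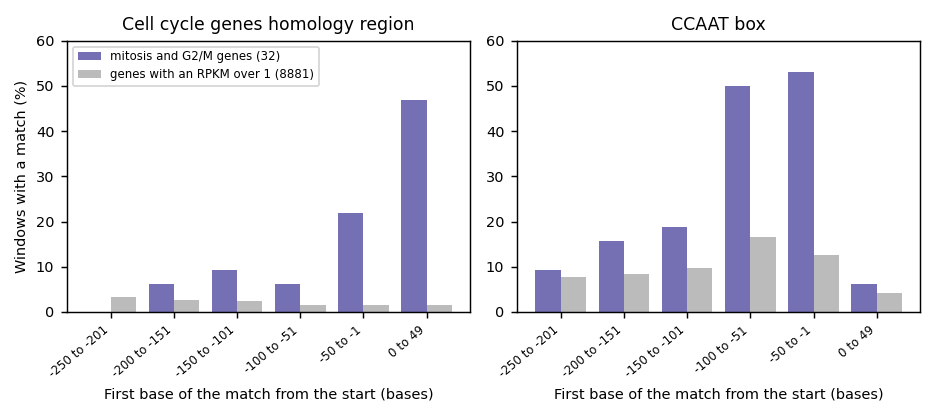
The horizontal axis is the position of the first base of a match from the first transcribed base, in bins of 50 bases, and the vertical axis the percentage of promoter windows with a match in the bin, for the CHR and for CCAAT. The 32 windows of the mitosis genes (46.9% with a CHR in the first 50 transcribed bases, 53.1% with a CCAAT in the 50 bases before) are shown beside the 8881 windows of genes with an RPKM over 1.

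The mitosis genes were well expressed at day 0 in the confluent cultures of every line. Their median RPKM at day 0 was 19.9, 35.3, 31.5 and 31.4 in shControl, shKDM4D, shNFIB and shMLL1 cells, against 5.67 to 6.14 for all genes with an RPKM over 1. At day 5 it was 8.33, 11.4, 13.5 and 15.5 in the same order. Among the genes with an RPKM over 1, the median percentile of the 40 genes went from 80.4 to 59.1, from 89.3 to 67.8, from 87.8 to 70.4 and from 88.2 to 74.2 in shControl, shKDM4D, shNFIB and shMLL1 cells. Even at day 5 the lowest of the 40 genes had an RPKM of 2.03 (*Ttk* in shControl cells), so that all 40 stayed detected in every line. *Mki67* or *Top2a* had the highest level in every library. The summed RPKM of the 40 genes was 1031 at day 0 and 440.3 at day 5 in shControl cells, 1581 and 527.5 in shKDM4D, 1597 and 686.7 in shNFIB, and 1470 and 704 in shMLL1 cells. The 4 day 5 sums therefore lay below the 4 day 0 sums, and the shControl sum was the lowest on either day.

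**Figure D2:**
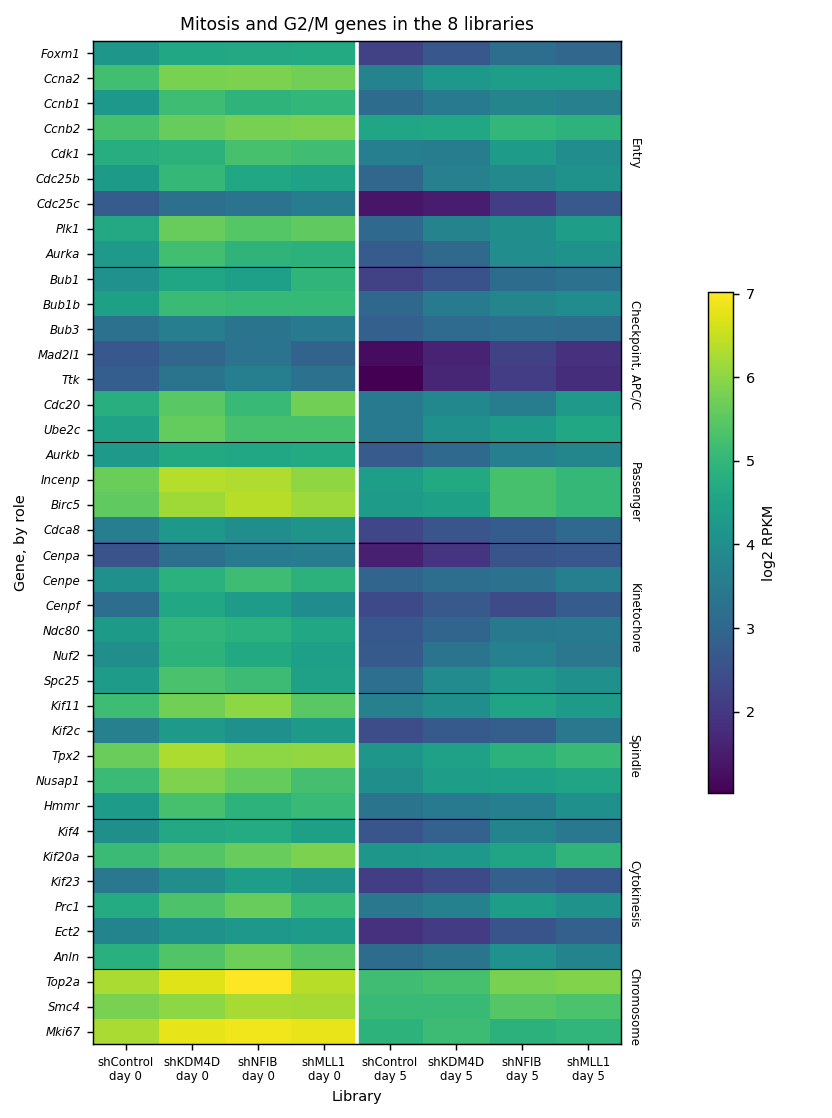
Each row is one of the 40 genes, ordered by role, each column one of the 8 libraries (the 4 lines at day 0 and at day 5), and the colour gives the log2 RPKM. The day 5 columns show lower values than the day 0 columns of the same line in every role, and *Top2a* and *Mki67* (76.4 and 76.7 in shControl cells at day 0) stand out as the highest rows at day 0.

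From day 0 to day 5, most mitosis genes fell in each line, and none rose. In shControl cells 34 of the 40 genes fell by more than 2-fold, where 8.56% of the 11513 expressed genes did. In shKDM4D cells 38 fell (8.44% of the expressed genes), against 29 in shNFIB (4.96%) and 23 in shMLL1 cells (6.89%). A rise past 2-fold was seen for 0 of the 40 in any line, where 13.0%, 12.8%, 12.6% and 20.4% of the expressed genes rose in shControl, shKDM4D, shNFIB and shMLL1 cells. After quantile normalization the expressed genes in shMLL1 cells divided into 13.2% higher and 11.9% lower. On the log2 (RPKM + 0.1) scale, the median change of the 40 genes was -1.28, -1.64, -1.19 and -1.03 in shControl, shKDM4D, shNFIB and shMLL1 cells, against 0.03, 0.03, 0.09 and 0.17 for all expressed genes. Relative to those medians the change was -1.31, -1.67, -1.28 and -1.20. Without that subtraction the median corresponds to 41.3%, 32.1%, 44.0% and 49.0% of the day 0 level, again in the order of the lines just given.

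The 4 lines share no library in this comparison. All 40 genes had a lower RPKM at day 5 in all 4 lines, as did 27.9% of the expressed genes, and 20 of the 40 fell by more than 2-fold in all 4 lines, as did 2.48%. Another 10 genes fell in 3 lines, 6 in 2 lines and 2 (*Ccnb2* and *Ube2c*) in 1 line, while *Bub3* and *Smc4* did not fall by more than 2-fold in any line with the deposited RPKM. In 38 of the 40 genes the 4 day 5 values all lay below the 4 day 0 values, which held for 15.1% of the expressed genes. The exceptions were *Ube2c*, whose highest day 5 value (24.1, in shMLL1 cells) exceeded its lowest day 0 value (22.4, in shControl cells), and *Cenpa* with 6.31 and 5.87 in the same libraries. The counting interval of the change lay below 0 for all 40 genes in shControl, shKDM4D and shMLL1 cells and for 39 in shNFIB cells, where *Bub3* was the exception. With the ratio to *Gapdh*, *Bub3* in shKDM4D cells was the only value of the 40 genes in the 4 lines above 0, at 0.01. The number that fell depended on the scale. In shControl cells it lay between 32 and 36 over the 5 scales, and in shKDM4D cells it was 31 with the ratio to *Gapdh* and 38 or 39 otherwise. In shNFIB cells it was 34 after quantile normalization or without the genes that resemble ribosomal RNA, 35 after median-of-ratios scaling and 39 with the ratio to *Gapdh*. In shMLL1 cells it was 32 after quantile normalization, 33 after median-of-ratios scaling and 30 with the ratio to *Gapdh* or without the genes that resemble ribosomal RNA. Those genes took a larger share of the reads at day 0 than at day 5.

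**Figure D3:**
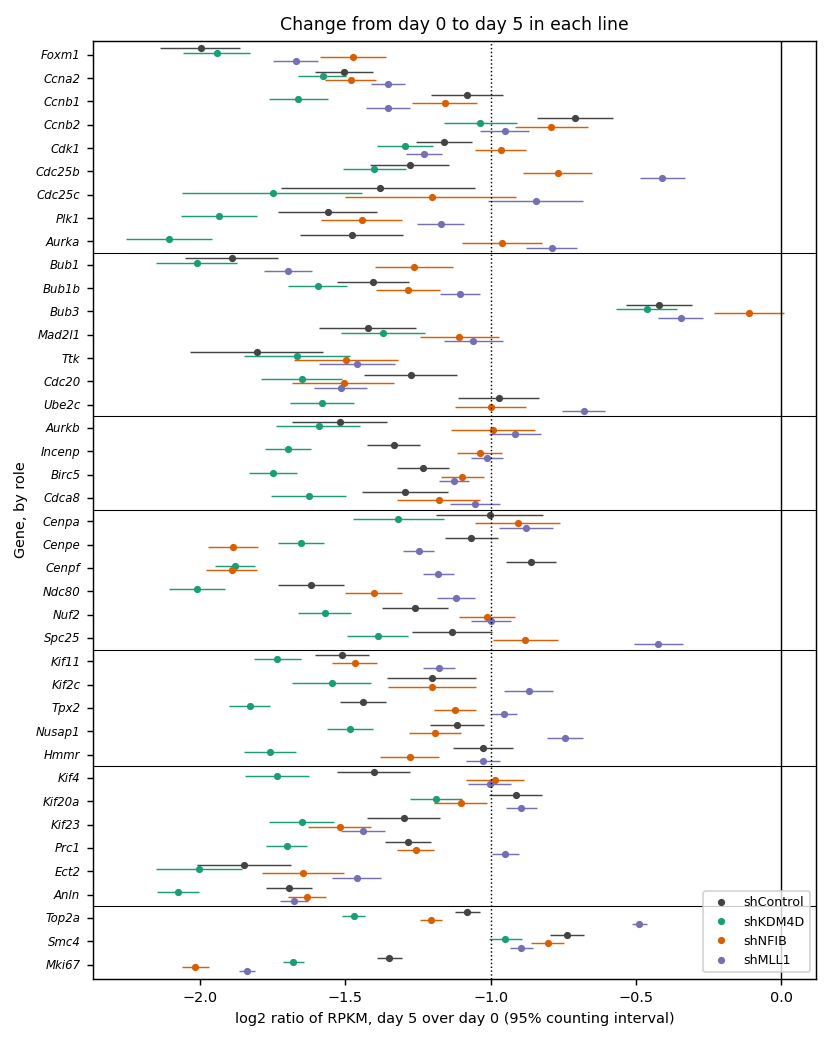
Points give the log2 ratio of RPKM at day 5 over day 0 for each of the 40 genes (rows, by role) in the 4 lines (colours), and the horizontal bars are the exact 95% counting intervals. All points lie left of 0 on this scale (*Bub3* in shKDM4D cells was at 0.01 with the ratio to *Gapdh*), those of shKDM4D cells are mostly furthest to the left (median -1.64, but -1.17 with the ratio to *Gapdh*, which puts shNFIB cells lowest at -1.75), and *Bub3* in shNFIB cells is nearest to 0.

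For the single genes below, 4 values in a row follow the order shControl, shKDM4D, shNFIB and shMLL1, and parentheses hold the 95% counting interval of a log2 ratio. The counts by role hold for the deposited RPKM and were not made on the other scales. On those, 34 to 39 of all 40 genes fell in shNFIB cells instead of 29, and 30 to 33 in shMLL1 cells instead of 23. Where an interval includes a change of 2-fold, the call does not set a gene or line apart. The 9 genes that start mitosis are the transcription factor gene *Foxm1*, the cyclin genes *Ccna2*, *Ccnb1* and *Ccnb2*, *Cdk1*, the genes of the phosphatases that activate CDK1 (*Cdc25b* and *Cdc25c*), and the kinase genes *Plk1* and *Aurka*. Of these, 8, 9, 5 and 5 fell in the 4 lines, and 4 (*Foxm1*, *Ccna2*, *Ccnb1* and *Plk1*) fell in all 4 lines. *Foxm1* (chromosome 6, from 128362967 to 128376146 of GRCm38), whose product activates many late cell cycle genes, had an RPKM of 18.5, 24.1, 25.2 and 25.7 at day 0 and of 4.63, 6.28, 9.07 and 8.07 at day 5. Its 4 values at day 5 were all under 10, and its log2 change was -2.00 (-2.14 to -1.86), -1.94 (-2.06 to -1.83), -1.47 (-1.59 to -1.36) and -1.67 (-1.75 to -1.59). This was the largest fall of the 40 genes in shControl cells. *Ccna2* (chromosome 3, from 36564865 to 36572150) encodes cyclin A2 and had an RPKM of 36.9, 56.1, 57.5 and 53.6 at day 0 and of 13.0, 18.8, 20.6 and 21.0 at day 5. The changes of *Ccna2* were close to each other in the 4 lines, at -1.50 (-1.60 to -1.41), -1.58 (-1.66 to -1.50), -1.48 (-1.57 to -1.39) and -1.35 (-1.41 to -1.29). *Ccna2* overlaps *Exosc9* on the opposite strand, which stayed between 6.48 and 8.27 in the 8 libraries.

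*Ccnb1* (chromosome 13, from 100778650 to 100786570), the gene of cyclin B1, had an RPKM of 18.6, 35.9, 30.2 and 31.7 at day 0 and of 8.80, 11.3, 13.6 and 12.4 at day 5. It fell in every line, by a log2 change of -1.08 (-1.21 to -0.96), -1.66 (-1.76 to -1.56), -1.16 (-1.27 to -1.05) and -1.35 (-1.43 to -1.28). The related *Ccnb2* had log2 changes of -0.71 (-0.84 to -0.58), -1.03 (-1.16 to -0.91), -0.79 (-0.92 to -0.67) and -0.95 (-1.03 to -0.87). With the deposited RPKM it fell by more than 2-fold in shKDM4D cells alone of the 4 lines. The intervals of *Ccnb2* in shKDM4D and shMLL1 cells both include a change of 2-fold, so this call does not separate the 2 lines. *Cdk1* (chromosome 10, from 69335146 to 69352938) had an RPKM of 27.3, 29.2, 39.0 and 36.6 at day 0 and of 12.2, 11.9, 20.0 and 15.6 at day 5. Its values in shControl and shKDM4D cells were near each other on both days, and those of shNFIB cells were the highest. The log2 change of *Cdk1* was -1.16 (-1.26 to -1.06), -1.29 (-1.39 to -1.20), -0.97 (-1.05 to -0.88) and -1.23 (-1.29 to -1.17), which in shNFIB cells was just short of 2-fold. *Plk1* (chromosome 7, from 122159439 to 122169873), the polo-like kinase gene, had an RPKM of 24.9, 49.9, 43.7 and 47.4 at day 0 and of 8.45, 13.1, 16.1 and 21.0 at day 5. The *Plk1* change was -1.56 (-1.73 to -1.39), -1.93 (-2.06 to -1.80), -1.44 (-1.58 to -1.31) and -1.17 (-1.25 to -1.09). *Aurka* (chromosome 2, from 172356190 to 172370535), which encodes the Aurora kinase of the centrosomes, had an RPKM of 18.9, 37.0, 30.4 and 29.6 at day 0 and of 6.81, 8.59, 15.6 and 17.1 at day 5. It showed the largest fall of all 40 genes in shKDM4D cells and stayed within 2-fold in shNFIB and shMLL1 cells, with log2 changes of -1.48 (-1.66 to -1.30), -2.11 (-2.25 to -1.96), -0.96 (-1.10 to -0.82) and -0.79 (-0.88 to -0.70). *Cdc25b* went from 22.4 to 16.8 in shMLL1 cells (-0.41) and from 19.6 to 8.06 in shControl cells (-1.28), and *Cdc25c* fell in all lines except shMLL1.

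The 7 genes of the spindle assembly checkpoint and of the anaphase-promoting complex fell in similar numbers in each line. Of these, 5 fell in all 4 lines, namely the checkpoint genes *Bub1*, *Bub1b*, *Mad2l1* and *Ttk* (which encodes the kinase MPS1) and *Cdc20*, and the number per line was 5, 6, 5 and 5 in shControl, shKDM4D, shNFIB and shMLL1 cells. *Bub1* (chromosome 2, from 127801122 to 127831865), which encodes a checkpoint kinase of the kinetochore, had an RPKM of 16.7, 23.5, 21.2 and 31.1 at day 0 and of 4.50, 5.82, 8.86 and 9.59 at day 5. The 4 day 5 values were below 10 and the 4 day 0 values above 16, and the log2 change was -1.89 (-2.05 to -1.73), -2.01 (-2.15 to -1.87), -1.26 (-1.40 to -1.13) and -1.70 (-1.78 to -1.61). *Cdc20* (chromosome 4, from 118432901 to 118437352), whose product activates the anaphase-promoting complex, had an RPKM of 27.9, 44.6, 33.4 and 53.9 at day 0 and of 11.5, 14.2, 11.8 and 18.9 at day 5. Its highest values were those of shMLL1 cells on both days, and its log2 change was -1.27 (-1.44 to -1.11), -1.65 (-1.79 to -1.51), -1.50 (-1.68 to -1.33) and -1.52 (-1.61 to -1.43). *Elovl1*, which overlaps *Cdc20* on the opposite strand, was between 9.13 and 13.4. *Bub3*, whose product also works outside mitosis, had the log2 change nearest to 0 of the 40 genes in each line, at -0.42 (-0.53 to -0.31), -0.46 (-0.57 to -0.36), -0.11 (-0.23 to 0.01) and -0.35 (-0.42 to -0.27). *Ube2c*, the gene of the ubiquitin-conjugating enzyme of the complex, went from 48.7 to 16.3 in shKDM4D cells (-1.58) and from 38.6 to 24.1 in shMLL1 cells (-0.68).

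The chromosomal passenger complex consists of Aurora B (*Aurkb*), INCENP (*Incenp*), survivin (*Birc5*) and borealin (*Cdca8*). All 4 genes fell in shControl and shKDM4D cells and 3 of 4 in shNFIB and shMLL1 cells, where *Aurkb* was the exception. *Aurkb* (chromosome 11, from 69045647 to 69051664) had an RPKM of 19.2, 25.3, 24.3 and 25.8 at day 0 and of 6.69, 8.38, 12.2 and 13.7 at day 5. Its log2 change was -1.52 (-1.68 to -1.35), -1.59 (-1.74 to -1.45), -0.99 (-1.14 to -0.85) and -0.92 (-1.01 to -0.83). The intervals of *Aurkb* in shNFIB and shMLL1 cells both include a change of 2-fold, so the call does not set it apart there. *Birc5* (chromosome 11, from 117849251 to 117855743) had an RPKM of 47.1, 72.4, 82.8 and 71.2 at day 0 and of 20.1, 21.6, 38.7 and 32.6 at day 5. It lay highest in shNFIB cells on both days, and its log2 change was -1.23 (-1.32 to -1.14), -1.75 (-1.83 to -1.67), -1.10 (-1.17 to -1.02) and -1.13 (-1.18 to -1.07). *Incenp* and *Cdca8* ranged from -1.05 (*Cdca8* in shMLL1 cells) and -1.01 (*Incenp* in the same cells) to -1.70 (*Incenp* in shKDM4D cells).

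Of the 6 kinetochore genes, 5, 6, 4 and 3 fell in shControl, shKDM4D, shNFIB and shMLL1 cells. *Cenpa* (chromosome 5, from 30666777 to 30674830), which encodes the histone H3 variant of centromeres, had the lowest RPKM of the 14 genes at day 0 in each line. Its RPKM was 5.87, 9.46, 11.1 and 11.6 at day 0 and 2.93, 3.80, 5.93 and 6.31 at day 5. Its log2 change was -1.00 (-1.19 to -0.82), -1.32 (-1.48 to -1.16), -0.91 (-1.05 to -0.76) and -0.88 (-0.97 to -0.78). The motor gene *Cenpe* and the gene of the large kinetochore protein *Cenpf* both had their smallest change in shControl cells. *Cenpe* had log2 changes of -1.07 (-1.16 to -0.97), -1.65 (-1.73 to -1.57), -1.89 (-1.97 to -1.80) and -1.25 (-1.30 to -1.19). *Cenpf* had log2 changes of -0.86 (-0.95 to -0.77), -1.88 (-1.95 to -1.81), -1.89 (-1.98 to -1.80) and -1.18 (-1.23 to -1.13). In shNFIB cells both fell further than any of the 40 genes except *Mki67*. The NDC80 complex genes *Ndc80*, *Nuf2* and *Spc25*, whose products bind the microtubules, had log2 changes between -2.01 (*Ndc80* in shKDM4D cells) and -0.42 (*Spc25* in shMLL1 cells).

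With the deposited RPKM, the 5 spindle genes fell without exception in shControl, shKDM4D and shNFIB cells, and 2 of them (*Kif11* and *Hmmr*) fell in shMLL1 cells. *Kif11* (chromosome 19, from 37376403 to 37421859), the gene of the kinesin that pushes the spindle poles apart, had an RPKM of 35.7, 53.5, 64.1 and 44.7 at day 0 and of 12.5, 16.1, 23.2 and 19.7 at day 5. The lowest value on either day was that of shControl cells and the highest that of shNFIB cells, and the log2 change was -1.51 (-1.60 to -1.42), -1.73 (-1.81 to -1.65), -1.47 (-1.54 to -1.39) and -1.18 (-1.23 to -1.12). *Tpx2*, the gene of the activator of Aurora A, had log2 changes of -1.44 (-1.52 to -1.36), -1.83 (-1.90 to -1.76), -1.12 (-1.19 to -1.05) and -0.95 (-1.00 to -0.91). The microtubule depolymerase gene *Kif2c* and the genes of the microtubule-binding proteins *Nusap1* and *Hmmr* ranged from -1.76 (*Hmmr* in shKDM4D cells) to -0.74 (*Nusap1* in shMLL1 cells). Of the 6 genes of the central spindle and cytokinesis, 5, 6, 5 and 4 fell in shControl, shKDM4D, shNFIB and shMLL1 cells, and *Kif23*, which encodes the kinesin of centralspindlin, *Ect2* and *Anln* fell in all 4 lines. *Ect2*, which encodes the exchange factor that activates RhoA at the cleavage furrow, had log2 changes of -1.85 (-2.01 to -1.69), -2.00 (-2.15 to -1.86), -1.65 (-1.79 to -1.50) and -1.46 (-1.55 to -1.38). *Anln*, the gene of the furrow protein anillin, had log2 changes of -1.69 (-1.77 to -1.61), -2.08 (-2.15 to -2.00), -1.63 (-1.70 to -1.56) and -1.68 (-1.72 to -1.63). The midzone kinesin genes *Kif4* and *Kif20a* and the microtubule bundler gene *Prc1* ranged from -1.74 (*Kif4* in shKDM4D cells) to -0.89 (*Kif20a* in shMLL1 cells).

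The last 3 genes act on the chromosomes. *Top2a* (chromosome 11, from 98992943 to 99024189), the gene of the topoisomerase that untangles sister chromatids, had an RPKM of 76.4, 107, 130.2 and 82.6 at day 0 and of 36.2, 38.6, 56.5 and 58.9 at day 5. In shMLL1 cells it stayed at more of its day 0 level than in any other line, with log2 changes of -1.08 (-1.12 to -1.04), -1.47 (-1.51 to -1.43), -1.21 (-1.24 to -1.17) and -0.49 (-0.51 to -0.46). *Mki67* (chromosome 7, from 135689784 to 135716361) encodes Ki-67, the antigen widely used to mark dividing cells, and had an RPKM of 76.7, 112, 119 and 113 at day 0 and of 30.1, 35.0, 29.5 and 31.6 at day 5. The day 0 values were 112 or higher in the 3 knockdown lines and 76.7 in shControl cells, whereas the day 5 values of the 4 lines lay between 29.5 and 35.0. *Mki67* fell further in each knockdown line than in shControl cells (in shKDM4D cells not with the ratio to *Gapdh*), by log2 changes of -1.35 (-1.39 to -1.31), -1.68 (-1.72 to -1.64), -2.02 (-2.06 to -1.97) and -1.84 (-1.87 to -1.81). It had the largest fall of the 40 genes in shNFIB and shMLL1 cells. With the deposited RPKM *Smc4*, a condensin gene, had log2 changes short of 2-fold in each line, at -0.74 (-0.80 to -0.68), -0.95 (-1.01 to -0.89), -0.80 (-0.86 to -0.75) and -0.89 (-0.93 to -0.86). Its interval in shKDM4D cells includes a change of 2-fold. *Smc4* fell past 2-fold in shKDM4D cells without the genes that resemble ribosomal RNA, and in shNFIB cells with the ratio to *Gapdh*.

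**Figure D4:**
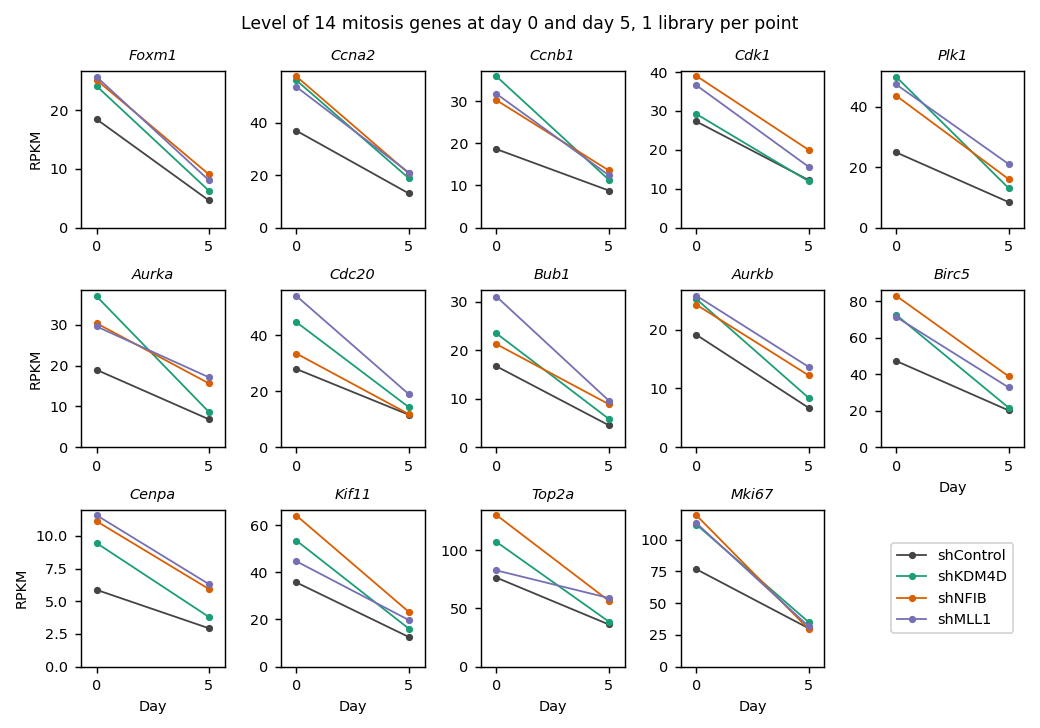
Each panel gives the RPKM (vertical axis, from 0) of one of the 14 genes at day 0 and day 5 (horizontal axis), with 1 library per point and the points of a line joined (colours, the 4 lines). All lines run downwards, and for *Mki67* they start apart (76.7 to 119) and meet at day 5 (29.5 to 35.0).

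At day 0, before induction, the mitosis genes were higher in each knockdown line than in shControl cells, mostly by less than 2-fold, except that with the ratio to *Gapdh* 8 were lower in shKDM4D and 4 in shMLL1 cells. The 3 comparisons of knockdown with control share the shControl library of the day and are given side by side. In shKDM4D cells all 40 genes had a higher RPKM than in shControl cells (49.4% of the expressed genes did), the counting interval lay above 0 for 40, and 3 genes were higher by more than 2-fold, where 1.98% of the expressed genes were. In shNFIB cells all 40 were higher (52.6%), the interval lay above 0 for 39, and 2 were higher by more than 2-fold (2.95%). In shMLL1 cells all 40 were higher (42.2%), with 40 intervals above 0 and 0 genes past 2-fold (1.67%). The median log2 (RPKM + 0.1) ratio was 0.62, 0.63 and 0.55 in shKDM4D, shNFIB and shMLL1 cells, against medians between -0.07 and 0.03 for all expressed genes. No member was lower by more than 2-fold, as 4.26%, 6.05% and 7.43% of the expressed genes were.

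In shKDM4D cells at day 0, the highest ratios were those of *Cenpf* (9.20 in shControl and 24.0 in shKDM4D cells, log2 ratio 1.39) and *Ube2c* at 1.12 (1.03 to 1.22), followed by *Plk1* at 1.00 (0.91 to 1.10). The lowest were those of *Cdk1* at 0.10 (0.03 to 0.17) and *Smc4* at 0.19 (0.14 to 0.23). In shNFIB cells *Cenpe* at 1.13 (1.07 to 1.19) and *Cenpf* at 1.12 (1.06 to 1.18) were highest, and *Bub3* at 0.03 (-0.07 to 0.14) and *Cdc20* at 0.26 (0.15 to 0.37) lowest. In shMLL1 cells *Cenpa* at 0.98 (0.87 to 1.09) and *Cdc20* at 0.95 (0.86 to 1.04) were highest, and *Top2a* at 0.11 (0.09 to 0.14) and *Spc25* at 0.12 (0.03 to 0.21) lowest. The top gene in each line was thus a kinetochore gene, but *Spc25* of the same group was second lowest in shMLL1 cells, and *Cdc20* was near the top in shMLL1 and near the bottom in shNFIB cells. *Foxm1* had a ratio of 0.39 (0.31 to 0.46), 0.45 (0.37 to 0.52) and 0.48 (0.41 to 0.54) in shKDM4D, shNFIB and shMLL1 cells. *Mki67* stood at 0.55 (0.52 to 0.57) with shKDM4D, 0.64 (0.61 to 0.66) with shNFIB and 0.56 (0.54 to 0.58) with shMLL1.

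The direction at day 0 held under the other ways to scale the libraries for most genes. Dividing by *Gapdh*, whose own RPKM at day 0 was 247, 326, 159 and 286 in shControl, shKDM4D, shNFIB and shMLL1 cells, moved the median of all expressed genes to -0.39, 0.65 and -0.27 in the knockdown lines. With that ratio 8 of the 40 genes were below shControl cells in shKDM4D and 4 in shMLL1 cells, namely *Foxm1*, *Ccnb2*, *Cdk1*, *Bub3*, *Mad2l1*, *Kif20a*, *Ect2* and *Smc4* in shKDM4D cells and *Cdc25b*, *Spc25*, *Nusap1* and *Top2a* in shMLL1 cells. *Bub3* in shNFIB cells was below shControl cells after quantile normalization. The ratio to *Gapdh* put 34 of the 40 genes past 2-fold in shNFIB cells, and 19.7% of the expressed genes with them. The distance between the median of the 40 genes and that of all expressed genes lay between 0.54 and 0.62 over the 3 lines and all 5 scales. The ratio to *Gapdh*, median-of-ratios scaling and leaving out the genes that resemble ribosomal RNA each multiply a library by a common factor. Such a factor moves both medians nearly alike, so the distance could hardly change. Quantile normalization could change it, and gave 0.61, 0.60 and 0.54 in shKDM4D, shNFIB and shMLL1 cells, against 0.62, 0.60 and 0.62 with the deposited RPKM.

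At day 5 the 40 genes were again mostly above shControl cells, with lower ratios in shKDM4D than in shNFIB and shMLL1 cells, except that shMLL1 was level with shKDM4D cells with the ratio to *Gapdh* (medians 0.35 and 0.34). In shKDM4D cells 38 of the 40 genes had a higher RPKM (50.8% of the expressed genes), the interval lay above 0 for 33, and 0 were higher by more than 2-fold (1.88%). In shNFIB cells 39 were higher (57.9%), with 37 intervals above 0 and 5 genes past 2-fold (5.54%). In shMLL1 cells 40 were higher (57.6%), with 40 intervals above 0 and 9 genes past 2-fold (5.25%). The median log2 (RPKM + 0.1) ratio was 0.30, 0.71 and 0.71, against 0.01, 0.09 and 0.07 for all expressed genes. No member was lower by more than 2-fold in any line, as 4.57%, 5.67% and 4.02% of the expressed genes were. The genes below shControl cells were *Cdk1* and *Smc4* with shKDM4D and *Mki67* with shNFIB, and each was above it with the ratio to *Gapdh*. *Cdc20* in shNFIB cells was below shControl cells after quantile normalization and after median-of-ratios scaling. With the ratio to *Gapdh* the median in shMLL1 cells was 0.35, 5 of the 40 genes were lower there (*Ccnb2*, *Cdk1*, *Bub3*, *Smc4* and *Mki67*), and none was past 2-fold.

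The 9 genes past 2-fold in shMLL1 cells at day 5 were *Aurka* at 1.33 (1.16 to 1.50), *Plk1* at 1.32 (1.15 to 1.49), *Cdc25c* at 1.32 (1.00 to 1.65), *Cenpa* at 1.10 (0.93 to 1.28), *Bub1* at 1.09 (0.93 to 1.26), *Ube2c* at 1.08 (0.95 to 1.21), *Cdc25b* at 1.06 (0.93 to 1.20), *Aurkb* at 1.03 (0.87 to 1.20) and *Ect2* at 1.00 (0.84 to 1.17). Of these, 4 belong to the 9 genes that start mitosis. The 5 genes past 2-fold in shNFIB cells were *Aurka* at 1.20 (1.00 to 1.39), *Kif4* at 1.10 (0.97 to 1.25), *Ttk* at 1.09 (0.84 to 1.36), *Spc25* at 1.03 (0.88 to 1.18) and *Cenpa* at 1.02 (0.82 to 1.22). *Kif4* overlaps *Pdzd11* on the opposite strand, whose RPKM at day 5 was 16.0 in shControl and 19.6 in shNFIB cells. In shKDM4D cells the highest were *Spc25* at 0.69 (0.54 to 0.84) and *Plk1* at 0.63 (0.44 to 0.82). The lowest were *Cdk1* at -0.04 (-0.15 to 0.08) and *Smc4* at -0.03 (-0.09 to 0.04), with intervals that hold 0. *Mki67* and *Cdc20* were lowest in shNFIB cells, at -0.03 (-0.09 to 0.03) and 0.03 (-0.18 to 0.24). *Mki67* and *Smc4* were lowest in shMLL1 cells, at 0.07 (0.03 to 0.12) and 0.25 (0.19 to 0.31). At day 5 *Mki67* was thus nearly level with shControl cells in shNFIB and shMLL1 cells, in which *Aurka* was past 2-fold.

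**Figure D5:**
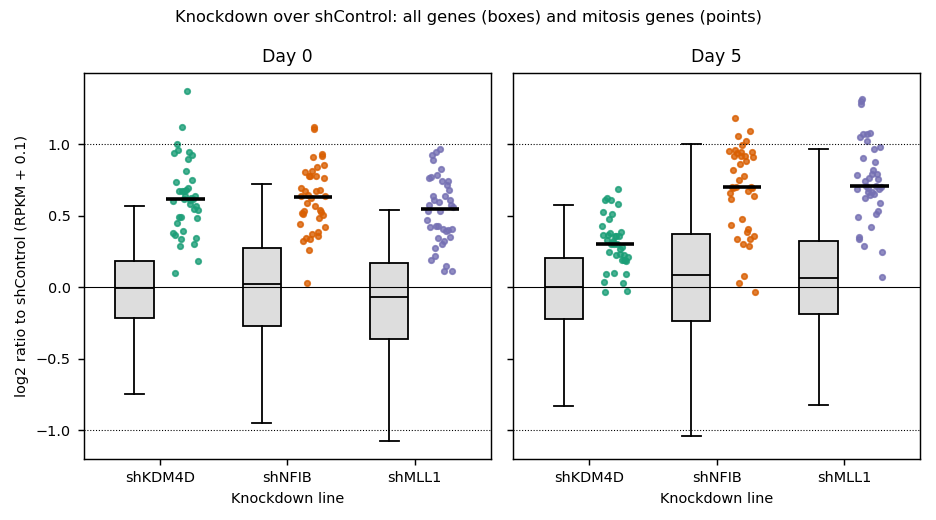
For day 0 and day 5, boxes give the log2 ratio to shControl (RPKM + 0.1) of all 11513 expressed genes in each knockdown line and points that of the 40 genes. The points lie mostly above the boxes' median (0.62, 0.63 and 0.55 against about 0 at day 0), and at day 5 those of shKDM4D cells are lower (median 0.30) than those of shNFIB and shMLL1 cells (0.71 in both).

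The day 5 ratio joins the higher start at day 0 with the change since then, so the change in each knockdown line was also set against that in shControl cells. The log2 change in shKDM4D cells was more negative than in shControl cells for 37 of the 40 genes, where 48.6% of the expressed genes were, with a median difference of -0.33 and a counting interval below 0 for 29 genes and above 0 for none. In shNFIB cells it was less negative for 27 genes and more negative for 13 (44.6% of the expressed genes), with a median of 0.12, 16 intervals above and 7 below 0. In shMLL1 cells it was less negative for 30 and more negative for 10 (36.5%), with a median of 0.30 (0.14 over all expressed genes), 26 intervals above and 7 below 0. *Cenpf* had the most negative difference in shKDM4D and shNFIB cells, at -1.02 (-1.13 to -0.91) and -1.03 (-1.15 to -0.91), and *Mki67* in shMLL1 cells, at -0.49 (-0.54 to -0.44). The most positive were *Ttk* in shKDM4D cells at 0.14 (-0.15 to 0.42), *Bub1* in shNFIB cells at 0.63 (0.42 to 0.83) and *Cdc25b* in shMLL1 cells at 0.87 (0.71 to 1.02). These counts depended on the scale. With the ratio to *Gapdh* the change was more negative than in shControl cells for 7 genes with shKDM4D and for 39 with shNFIB, with median differences of 0.10 and -0.48, so that both directions turned, and for 15 with shMLL1 (median 0.15). On that scale the median difference over all expressed genes was 0.44 and -0.52 with shKDM4D and shNFIB. Less the median of all expressed genes, the difference of the 40 genes lay between -0.34 and -0.33 in shKDM4D, 0.04 and 0.05 in shNFIB and 0.14 and 0.22 in shMLL1 cells over the 5 scales. A factor common to a library nearly cancels in this subtraction, so of the alternatives only quantile normalization could move it. That scale gave -0.34, 0.05 and 0.22 in shKDM4D, shNFIB and shMLL1 cells, against -0.34, 0.05 and 0.15 with the deposited RPKM. The differences between the knockdown lines themselves were not tested.

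A list of 69 other genes of mitosis, among them further kinesins, centromere proteins and condensin and cohesion factors, was read in the same way. Of the 69 genes 55, 58, 44 and 28 fell by more than 2-fold in shControl, shKDM4D, shNFIB and shMLL1 cells, where 8.56%, 8.44%, 4.96% and 6.89% of the expressed genes did. None rose by more than 2-fold, as 13.0%, 12.8%, 12.6% and 20.4% of the expressed genes did. In shMLL1 cells 3 of the 69 had a higher RPKM at day 5, 2 of them with a counting interval above 0. The other scales were not applied to this list. Their median log2 (RPKM + 0.1) change was -1.32, -1.50, -1.05 and -0.87 in the same order, and 24 of the 69 fell in all 4 lines (34.8%, against 2.48% of the expressed genes). In shControl cells the largest falls were those of *Mybl2*, the gene of the MYB protein of the MYB-MuvB complex, with an RPKM of 9.07 at day 0 and 1.82 at day 5 and a log2 change of -2.32 (-2.56 to -2.08), and of *Trip13* with 8.97 at day 0 and 2.04 at day 5 and a log2 change of -2.14 (-2.41 to -1.87), whose product takes part in checkpoint silencing. The smallest changes were those of the kinetochore gene *Zwint* with 35.7 at day 0 and 31.4 at day 5 and a log2 change of -0.19 (-0.26 to -0.12) and of *Fzr1* with 9.88 at day 0 and 8.40 at day 5 and a log2 change of -0.23 (-0.37 to -0.10), which encodes the coactivator of the anaphase-promoting complex used in late mitosis and G1. Against shControl cells at day 5 their median ratio was 0.32, 0.70 and 0.71 in shKDM4D, shNFIB and shMLL1 cells, with 0, 16 and 12 genes higher by more than 2-fold (1.88%, 5.54% and 5.25% of the expressed genes) and none lower (4.57%, 5.67% and 4.02%).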

How the data were processed

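The authors isolated RNA from the 8 cultures, prepared libraries with a stranded SMARTer kit, aligned them to GRCm38 in CLC Genomics Workbench 11.0.1 (costs of 2 for a mismatch and 3 for an insertion or a deletion, with length and similarity fractions of 0.8) and deposited an RPKM value per gene and library. Whether reads were counted by strand is not given in the sources used here, so reads of overlapping genes on opposite strands may not be told apart. Besides the pairs named above, this concerns *Kif20a* with *Cdc23* (an RPKM of 8.70 to 13.4 over the 8 libraries). It also concerns *Cdc25b* with *Spef1* (2.19 to 5.23) and *Nusap1* with *Oip5* (1.66 to 7.89), among others. The quantile normalization of the methods is not visible in the deposited RPKM values and was an alternative here.

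Whole reads were recovered from the RPKM values and the exon lengths of GENCODE M21 (at least 96.2% of the values under 1000 reads within 0.02 of a whole read per library; for 4 of the 40 genes, *Cdc25c*, *Incenp*, *Kif11* and *Kif20a*, the length was found from the values). They gave exact 95% Clopper-Pearson intervals conditional on the sum of both libraries, and intervals on the log scale (Wald) for differences of changes. PCR duplicates are not removed from them. The background was made up of the genes, of any type, that passed an RPKM of 1 in 1 library or more, and a change of over 2-fold without a pseudocount was called. Medians used log2 (RPKM + 0.1), which understates changes of low genes. No p-value is given, as each condition has 1 library.

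The 40 genes, the other lists and the rules were chosen with earlier results of these data known. Values in all libraries are given for 14 genes picked by role, and in each comparison the 2 highest and 2 lowest members are named. Members past 2-fold at day 5 in shNFIB and shMLL1 cells, *Plk1* in shKDM4D cells at day 0 and further single members of each role were named after their values were seen. Alternatives were pseudocounts of 0.01 (medians), 0.1 (counts) and 1, an RPKM filter of 2 or none, quantile normalization, median-of-ratios scaling, the ratio to *Gapdh*, and leaving out AY036118 and CT010467.1, which resemble ribosomal RNA. For the counts, a 2-fold change with a counting interval that excludes 0 was a further alternative. The work used matplotlib 3.10.9, scipy 1.17.1, pandas 2.3.3 and numpy 2.4.6 under Python 3.11.15. The recovery of depth, the 2-fold call and the exact intervals were tested on reads simulated with counting error only, at the depths of the shControl libraries. The intervals of differences of changes, the other scales and the promoter search were not tested in this way.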

Additional observations from a re-analysis of the deposited data

How the results depend on the processing

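Of 160 values recomputed under the alternatives, 139 stayed near the main value and 21 moved. The 90 counts were called near within 1.5 times the count, and their direction was not scored. The 70 medians were called near within the median half-width of the counting intervals of single genes, and 0 of them changed sign. The RPKM filters could alter no value, as every member passed them. Asking also for a counting interval that excludes 0 altered no count. The differences of change between lines are not among the 160, and their medians in shKDM4D and shNFIB cells changed sign with the ratio to *Gapdh*. Genes within 2-fold that changed sign are named with the comparisons. The median change from day 0 to day 5 became -1.53 in shKDM4D cells with 1 added to each RPKM and -1.17 with the ratio to *Gapdh*, and -1.75 in shNFIB cells with that ratio. In shMLL1 cells it became -1.14 after quantile normalization, -1.24 after median-of-ratios scaling, -1.14 with the ratio to *Gapdh* and -1.14 without the genes that resemble ribosomal RNA. At day 0, the ratio to *Gapdh* gave 0 members past 2-fold and a median of 0.22 in shKDM4D cells, 34 members and 1.27 in shNFIB cells, and a median of 0.34 in shMLL1 cells, where quantile normalization gave 2 members past 2-fold and median-of-ratios scaling 3 with a median of 0.64. At day 5 in shNFIB cells the count became 1 with 1 added to each RPKM, 3 after median-of-ratios scaling and 8 with the ratio to *Gapdh*. In shMLL1 cells at day 5 it became 4 with 1 added and 0 with the ratio to *Gapdh*, with a median of 0.35. *Gapdh* itself differed between the libraries, from an RPKM of 159 to 326, and the part of that in these values was not tested.

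The labels give no replicate numbers. Day 5 and day 0 can be paired within a line, but a fit with the line as a block was not run, because it would treat lines with different shRNAs as replicates. With 1 library in each condition no replicate can be left out. The intervals hold none of the variation between cultures. Depth limited *Cdc25c* most.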

Other observations

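The genes of DNA replication, which precede mitosis in the cell cycle, were lower at day 5 than at day 0 in all 4 lines as well, though not to the same extent as the mitosis genes in each. Of 18 S phase genes, 16 fell past 2-fold in control cells (8.56% of the expressed genes did), 14 with shKDM4D (8.44%), 2 with shNFIB (4.96%) and 13 with shMLL1 (6.89%). These counts hold for the deposited RPKM, and the other scales were not applied to this list. *Gapdh* went from an RPKM of 159 at day 0 to 235 at day 5 in shNFIB cells, so the ratio to it would make every fall there larger. The median log2 (RPKM + 0.1) change was -1.57, -1.30, -0.78 and -1.38 in the same order. In shControl cells the largest falls were those of the replicative helicase genes *Mcm5* with an RPKM of 31.9 at day 0 and 7.17 at day 5 and a log2 change of -2.15 (-2.29 to -2.02) and *Mcm2* with 29.8 at day 0 and 6.95 at day 5 and a log2 change of -2.10 (-2.20 to -2.00), and the smallest changes those of *Ccne1*, the gene of cyclin E1, with 10.8 at day 0 and 5.66 at day 5 and a log2 change of -0.93 (-1.13 to -0.73), and of the transcription factor gene *E2f1* with 9.14 at day 0 and 7.32 at day 5 and a log2 change of -0.32 (-0.49 to -0.15). Against shControl cells at day 0 their median ratio was 0.13, -0.06 and 0.44 in shKDM4D, shNFIB and shMLL1 cells, beside 0.62, 0.63 and 0.55 for the 40 mitosis genes. Whether the lists differ was not tested.

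A further list of 21 genes held G1 cyclins, the kinase genes *Cdk2*, *Cdk4* and *Cdk6*, CDK inhibitors and pocket protein genes. It also held *E2f4*, *Lin9*, *Lin54*, *Btg1* and *Btg2*. Of these 21 genes, 18 had an RPKM over 1 in at least 1 library. Among these, 2 rose and 6 fell in shControl, 1 and 5 in shKDM4D, 0 and 4 in shNFIB, and 2 and 2 in shMLL1 cells. Of all expressed genes, 13.0%, 12.8%, 12.6% and 20.4% rose and 8.56%, 8.44%, 4.96% and 6.89% fell in the same order, so the rises in this list were no more frequent than in the background. The 6 genes that fell in shControl cells were *Ccnd1*, *Cdk2*, *Cdk6*, *Rbl1*, *Lin9* and *Lin54*, none of them a CDK inhibitor. In shControl cells the antiproliferative genes *Btg2* with an RPKM of 2.44 at day 0 and 10.9 at day 5 and a log2 change of 2.17 (1.92 to 2.42) and *Btg1* with 15.0 at day 0 and 34.4 at day 5 and a log2 change of 1.20 (1.12 to 1.27) rose most, and *Cdk6* with 5.93 at day 0 and 2.00 at day 5 and a log2 change of -1.57 (-1.71 to -1.43) and the pocket protein gene *Rbl1* with 13.4 at day 0 and 4.55 at day 5 and a log2 change of -1.56 (-1.70 to -1.42) fell most. *Ccnd1*, which encodes cyclin D1, had an RPKM at day 0 and day 5 of 66.5 and 28.1 in shControl cells, 78.2 and 36.1 with shKDM4D, 130.4 and 65.3 with shNFIB and 82.1 and 32.4 with shMLL1. It fell in shControl, shKDM4D and shMLL1 cells and was just short of 2-fold in shNFIB cells. The p21 gene *Cdkn1a* had 30.6 and 27.6 in shControl cells, 31.0 and 30.6 with shKDM4D, 43.7 and 44.6 with shNFIB and 18.8 and 40.7 with shMLL1, and rose in shMLL1 cells, where its day 0 value was the lowest of the 4. The p27 gene *Cdkn1b* had 16.6 and 20.9 in shControl cells, 15.5 and 21.4 with shKDM4D, 15.2 and 23.0 with shNFIB and 10.9 and 20.5 with shMLL1, and the pocket protein gene *Rbl2* 8.21 and 10.8 in shControl cells, 7.23 and 10.2 with shKDM4D, 9.43 and 8.19 with shNFIB and 7.28 and 9.89 with shMLL1. *Cdkn1c*, the p57 gene, had 1 read in shControl and shKDM4D cells at day 5 and 0 reads in the other 6 libraries. The CDK inhibitor genes *Cdkn2a* and *Cdkn2b* had an RPKM of 0 in all 8 libraries.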
